A study of Mus musculus with 12 samples.

Results

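Skin from mice given TSeL without L was compared with skin from mice given PBS (phosphate-buffered saline, the control). The mice were of the BALB/C strain, an inbred albino laboratory strain, and 8 weeks old according to the series text. The comparison takes 6 of the 12 labelled samples: 3 labelled TSeL and 3 labelled PBS. The other groups, TL+L and TSeL+L, entered the statistical fit, and TL+L values are given only to qualify Padi4 and Hdc. The labels do not explain TL, TSeL or L, nor say whether each sample came from a separate animal. Messenger RNA captured on oligo-dT beads was sequenced from whole skin, so every value is an average over all cells of the piece.

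Counting noise could account for most of the difference among the 3 count columns read as TSeL, so their average stands for 1 sample. The mean chi-square between any pair of them was 1.19 to 1.41 per gene, against 25.1 to 59.0 between PBS samples. So the comparison rests on 1 TSeL sample and 3 PBS samples, and each TSeL value is set against the range of the PBS samples. The 12 count columns, those of TL+L and TSeL+L included, held 16630580 to 17318158 estimated counts each. Expression is given in CPM, counts scaled to a common library total, after adjustment of the libraries to one another by TMM (a factor computed so that most genes balance). With 1 TSeL sample no error can be given for TSeL, and the fit assumes that it varies like the PBS and TL+L samples.

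None of the 15791 genes tested, 0.0%, passed edgeR's quasi-likelihood F-test at an adjusted p (Benjamini-Hochberg) under 0.05, and the lowest was 0.12. An unadjusted p under 0.05 was reached by 3112 genes. Limma-voom called 0 genes and DESeq2 1324. With PBS and TSeL alone in the edgeR fit 1.46% of 15389 genes passed as higher and 1.25% as lower, all close to the threshold, since the lowest adjusted p was 0.0479. Without TL+L replicate 2, which enters only through the shared spread, 1315 passed. The genes and lists below are therefore described by size and by their place outside the PBS range. TSeL lay above every PBS sample for 37.5% of genes and below every PBS sample for 33.5%. It was at least 2-fold higher and above every PBS sample for 8.27% (1306 genes), and at least 2-fold lower and below every PBS sample for 6.45% (1019 genes). These shares over all genes are the background for the list counts below. With library totals in place of TMM 959 genes were 2-fold higher and 1535 were 2-fold lower. The log2 fold changes then centred on -0.18 in place of 0.01.

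Skin lies over a sheet of striated muscle, the panniculus carnosus, and a piece of skin can carry some of it. Muscle fibres contract through thick filaments of myosin that pull on thin filaments of actin, on release of calcium from the sarcoplasmic reticulum. They are supplied with ATP by creatine phosphate, glycogen breakdown and mitochondria. Skin also holds keratinocytes of the epidermis, hair follicles with their sebaceous glands and melanocytes, collagen-producing fibroblasts, vessels, nerves, fat and resident or recruited immune cells.

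Across 67 gene lists the TSeL sample had higher muscle fibre, mitochondrial, sebaceous, pigment and myelin genes than PBS. Neutrophil, mast cell, macrophage, complement, cornified envelope, collagen and endothelial genes were lower. Interferon genes had a median log2 fold change of -1.06, and of -0.36 without PBS replicate 3. In bulk skin more cells of a type and more RNA per cell cannot be told apart, and the same holds for fewer cells and less RNA.

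**Figure D1:**
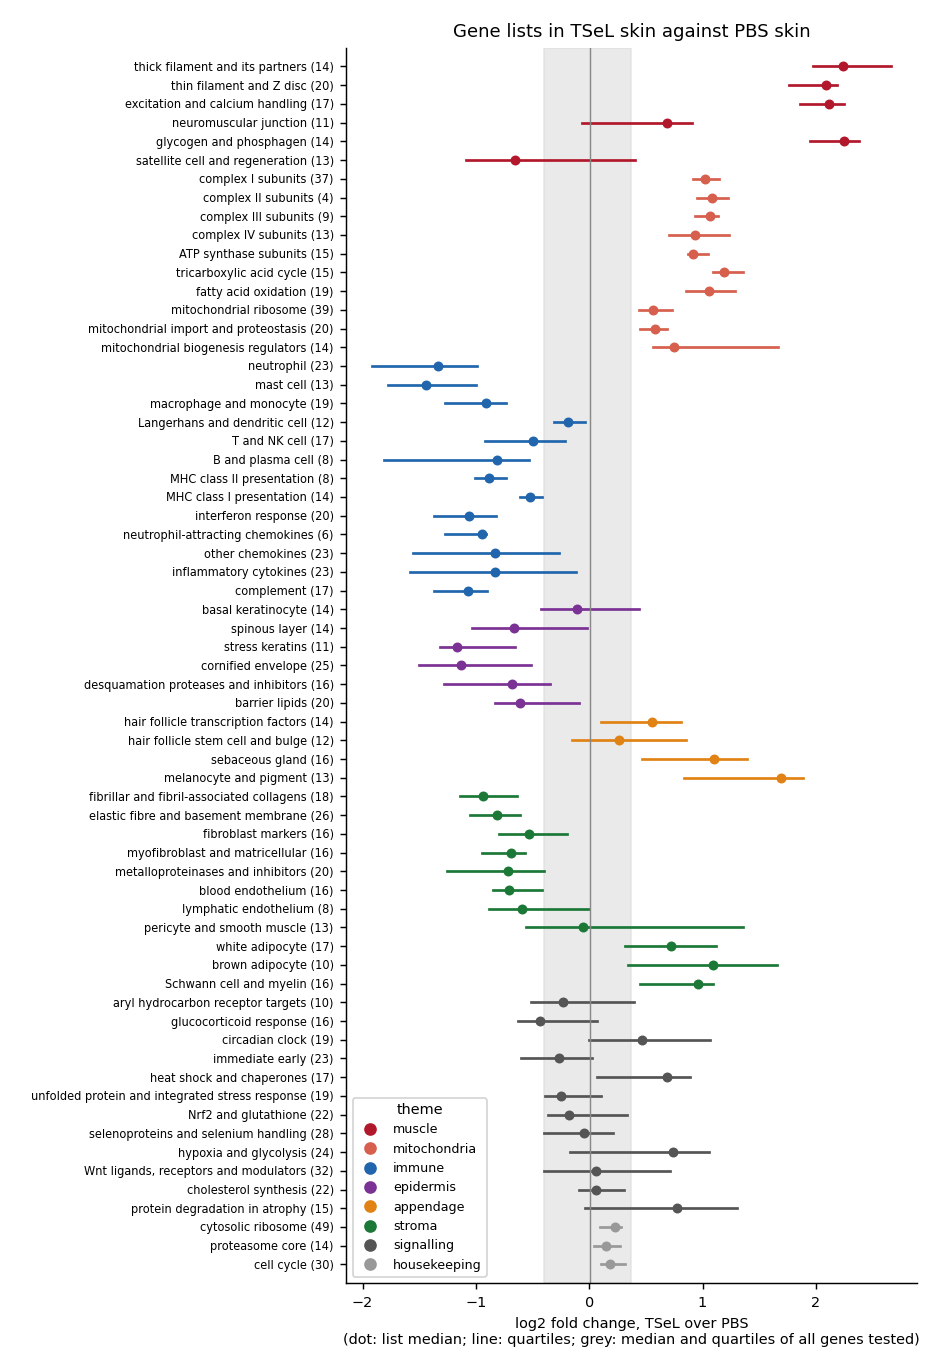
Median (dot) and quartiles (line) of the log2 fold change of TSeL over PBS for the gene lists, coloured by theme, with the number of genes tested in brackets; the grey band gives the quartiles of all genes tested. The 4 muscle fibre lists lie above 2, mitochondrial lists between 0.56 and 1.19, and most immune, epidermal and stromal lists below 0. Hair shaft keratins, with 6 members at 0 counts in TSeL, and inner root sheath, with 1, are left out. The inner root sheath median was -2.53, and -0.55 without PBS replicate 3.

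Genes of the muscle fibre stood apart most. All genes of the muscle lists together took 17.4% of counts in TSeL, against 6.10%, 4.504% and 2.40% in PBS samples 1 to 3. All 14 thick filament genes, 19 of 20 thin filament and Z disc genes, 15 of 17 genes of excitation and calcium handling and all 14 genes of glycogen and phosphagen use were at least 2-fold higher and above every PBS sample, against 8.27% of all genes. Their median log2 fold changes were 2.24, 2.09, 2.11 and 2.25, against 0.01 over all genes tested. Of these 65 genes 1 passed in the fit of PBS and TSeL alone. The 3 PBS samples themselves differed by more than 2-fold in this content, and without PBS replicate 3, the lowest, the medians were 1.87, 1.72, 1.77 and 1.88.

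The genes farthest above the PBS range were those of the slow and cardiac myosin. Myl2 (NCBI gene 17906), the regulatory light chain of slow and cardiac myosin, was at 173 CPM in TSeL, with 169 to 178 CPM over its 3 columns, against 20.25, 18.6 and 2.72 CPM in PBS 1 to 3. Myl3 (17897), the matching essential light chain, was at 70.5 CPM in TSeL, against 8.30, 5.72 and 1.07 CPM in PBS. Both lay far above every PBS sample, and PBS 3 was the lowest each time. Myh7 (140781), the slow myosin heavy chain, was at 1342 CPM in TSeL, against 206, 128 and 28.2 CPM in PBS, a log2 fold change of 3.47 with a standard error of 1.51 taken from the other samples (edgeR adjusted p = 0.272). This is 11.1-fold, and 17.2-fold without PBS replicate 1. Myh6, the heavy chain of cardiac atrium, was at 117 CPM in TSeL, against 16.6, 13.6 and 2.90 CPM in PBS. Myh6 and Myh7 are near-identical neighbours, and reads could have been split between them.

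The fast myosin heavy chains, taken up here after their values had been seen, were more abundant and less far above PBS. Myh4, the chain of the fastest fibres, was at 35230 CPM in TSeL, against 10230, 4296 and 2814 CPM in PBS, or 6.09-fold higher, and 9.91-fold without PBS replicate 1. Myh2 was 4.54-fold and Myh1 3.73-fold higher. In the authors' mean TPM, which corrects for transcript length, TSeL held 8137 TPM of Myh4, 2348 of Myh1, 873 of Myh2 and 309 of Myh7, against 1521, 712, 217.5 and 31.3 TPM in PBS. Fast chains thus made up most myosin heavy chain RNA in both groups. Not every slow gene was far above PBS: Tnni1, slow troponin I, was 2.62-fold higher, and Casq2, the slow and cardiac calsequestrin, was at 116 CPM in TSeL against 107, 110 and 65.8 CPM in PBS. Over a set of 8 slow fibre genes the median log2 fold change was 1.80, with 6 at least 2-fold higher and above every PBS sample. Over 13 fast fibre genes the median was 2.175, with 13 at least 2-fold higher. Slow genes as a set were thus not higher by more than fast ones.

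**Figure D2:**
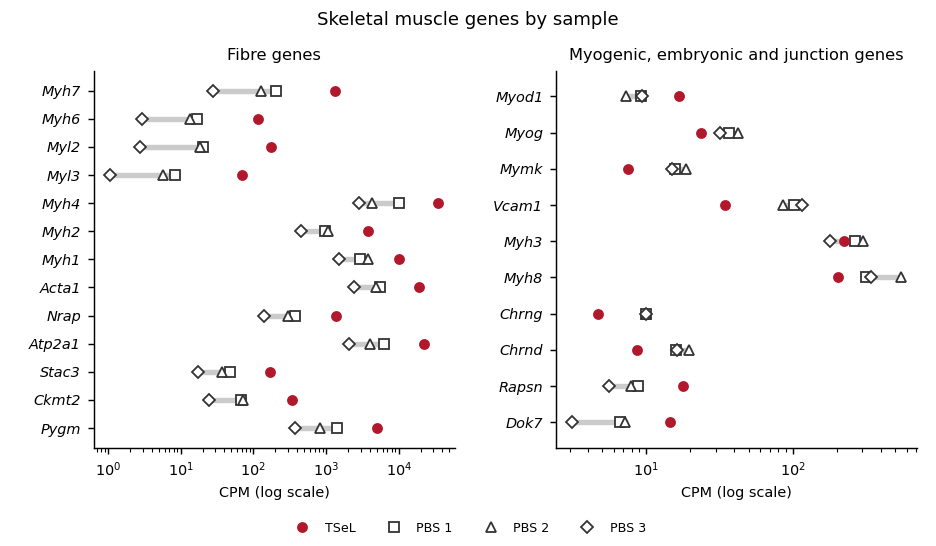
CPM (log axis) of skeletal muscle genes in TSeL (filled) and in PBS 1 to 3 (open), with a grey bar over the PBS range. Fibre genes at left lie to the right of every PBS sample; at right Myod1, Rapsn and Dok7 do so too, Myh3 lies inside the PBS range, and Myog, Mymk, Vcam1, Myh8, Chrng and Chrnd lie to its left.

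Members of the thin filament and calcium lists were higher by similar amounts. Acta1, skeletal muscle actin, was at 19060 CPM in TSeL, against 5462, 4810 and 2393 CPM in PBS, or 4.52-fold higher. Nrap, an anchoring protein of myofibril ends, was 5.04-fold, the Z disc genes Myoz1 and Myot 4.82-fold and 4.86-fold higher. Atp2a1, the calcium pump of fast fibres, was at 22480 CPM in TSeL, against 6241, 4037 and 2094 CPM in PBS. Stac3, which couples membrane depolarization to calcium release, and Trdn, triadin of the release site, were 5.04-fold and 5.05-fold higher. Each of these lay above every PBS sample.

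The fuel genes of the fibre followed. Ckmt2, mitochondrial creatine kinase, was at 337 CPM in TSeL, against 67.2, 71.3 and 24.7 CPM in PBS, or 6.20-fold higher. Pygm, the muscle glycogen phosphorylase, was 5.83-fold, Ppp1r3a, which targets protein phosphatase to glycogen, 5.50-fold and Pfkm, muscle phosphofructokinase, 5.15-fold higher. The TSeL value of each was above every PBS value.

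Promoters of fibre genes are shown because these members were higher together. They were read from RefSeq windows of 250 bases before to 50 after the gene's start in build GRCm38.p6, 5′ to 3′ on the gene's strand. The build behind the counts is not given in the sources used here. Capitals mark CAGCTG, an E-box of the kind bound by MyoD family factors, which reads the same on both strands. The windows of Myl2 (chr5:122092474-122092773, + strand), Ckmt2 (chr13:91876836-91877135, - strand) and Ckm, muscle creatine kinase (chr7:19410844-19411143, + strand), hold 1 match each.
Myl2: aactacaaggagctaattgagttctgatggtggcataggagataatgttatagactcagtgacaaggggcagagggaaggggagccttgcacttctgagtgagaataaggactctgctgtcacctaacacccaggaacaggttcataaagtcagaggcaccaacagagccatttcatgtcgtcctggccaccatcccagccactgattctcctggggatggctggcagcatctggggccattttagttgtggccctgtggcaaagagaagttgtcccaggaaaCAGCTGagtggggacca
Ckmt2: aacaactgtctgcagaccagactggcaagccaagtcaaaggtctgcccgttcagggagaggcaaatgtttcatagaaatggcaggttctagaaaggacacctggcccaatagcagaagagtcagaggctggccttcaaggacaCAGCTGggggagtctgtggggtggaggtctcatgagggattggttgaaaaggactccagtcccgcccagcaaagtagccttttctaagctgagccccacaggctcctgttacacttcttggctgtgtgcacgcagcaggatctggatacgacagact
Ckm: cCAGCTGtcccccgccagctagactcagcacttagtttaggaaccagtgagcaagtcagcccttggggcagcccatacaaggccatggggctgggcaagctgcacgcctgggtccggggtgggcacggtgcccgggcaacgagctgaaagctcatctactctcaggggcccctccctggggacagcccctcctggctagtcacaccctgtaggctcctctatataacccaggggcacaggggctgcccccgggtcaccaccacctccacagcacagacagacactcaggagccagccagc
A promoter window was found for 48 of the 65 genes of the 4 fibre lists, and 25 of them (52.1%) held CAGCTG. Of 12481 windows of all tested genes 15.65% held it. The MEF2 motif, the site of another muscle transcription factor, was in 8 of the 48 windows (16.7%) and in 1.96% of all windows, on either strand. The window of Myl3 held no CAGCTG. These matches describe letters only.

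Genes of the neuromuscular junction leaned higher by less than the fibre genes, and those of muscle regeneration leaned lower. Of 11 junction genes 7 lay above every PBS sample, 2 of them at least 2-fold, and 3 below, 1 of them at least 2-fold, with a median of 0.69. Without PBS replicate 1, 4 were at least 2-fold higher and 2 lower, and without PBS replicate 3, 2 were lower. Rapsn, which clusters acetylcholine receptors, was at 17.9 CPM in TSeL, against 8.78, 7.87 and 5.57 CPM in PBS, and Dok7, which activates the junction's receptor kinase MuSK, was 2.56-fold higher. Chrng, the receptor subunit of embryonic and denervated muscle, was at 4.69 CPM in TSeL, against 9.94, 10.02 and 10.01 CPM in PBS. Chrnd, another receptor subunit, was at 8.67 CPM in TSeL, against 16.04, 19.7 and 16.3 CPM in PBS.

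Of 13 satellite cell and regeneration genes 0 were at least 2-fold higher and 4 at least 2-fold lower and below every PBS sample, with a median of -0.65. Without PBS replicate 1 or 2, 2 of them were at least 2-fold higher. Chrng, given above, is on this list too. Mymk, the myoblast fusion protein myomaker, was at 7.55 CPM in TSeL, against 15.6, 18.8 and 15.0 CPM in PBS. Vcam1, an adhesion molecule that endothelium also makes, was 2.91-fold lower. Myod1, the myogenic regulator, was at 16.6 CPM in TSeL, above PBS samples at 9.21, 7.25 and 9.36 CPM. Its target Myog was lower at 23.6 CPM in TSeL, against 36.9, 42.5 and 31.7 CPM in PBS. The embryonic myosin Myh3 lay inside the PBS range, and the perinatal myosin Myh8 was at 204 CPM in TSeL, against 317, 549 and 341 CPM in PBS; Myog, Myh3 and Myh8 were taken up after their values had been seen.

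Mitochondrial genes were higher across the respiratory chain. All 37 complex I subunits, all 4 of complex II, all 9 of complex III, 12 of 13 of complex IV and all 15 of ATP synthase lay above every PBS sample. Their medians were 1.02, 1.09, 1.07, 0.93 and 0.92 on the log2 scale, and 20, 2, 6, 5 and 7 of them were at least 2-fold higher. Without PBS replicate 3 these counts were 9, 2, 1, 4 and 0, and without PBS replicate 2 the count of complex IV was 8. Ndufs7, a core complex I subunit, was at 117.5 CPM in TSeL, against 43.3, 48.0 and 28.7 CPM in PBS, or 2.94-fold higher. Sdhb, the iron-sulphur subunit of complex II, was at 213 CPM in TSeL, against 91.3, 92.6 and 72.1 CPM in PBS. Uqcrc1 of complex III was 2.31-fold, and Atp5c1 of ATP synthase 2.07-fold higher.

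The tricarboxylic acid cycle and fatty acid oxidation showed the same. All 15 cycle genes lay above every PBS sample, 12 of them at least 2-fold, with a median of 1.19. Idh3a and Ogdh, which catalyse oxidative steps of the cycle, were 2.95-fold and 2.65-fold higher. Of 19 fatty acid oxidation genes 18 lay above every PBS sample and 11 at least 2-fold, with a median of 1.06, and 7 passed in the fit of PBS and TSeL alone. Acadm, the medium-chain dehydrogenase, was at 237 CPM in TSeL, against 96.4, 82.8 and 62.1 CPM in PBS. The 1 gene below every PBS sample was Cpt1a, given with the isoform pairs.

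The mitochondrial ribosome and import machinery were higher by less. Of 39 mitochondrial ribosome genes 37 lay above every PBS sample and 1 at least 2-fold, with a median of 0.56, and Mrpl15 was at 70.6 CPM in TSeL, against 36.7, 42.3 and 29.1 CPM in PBS. Of 20 import and proteostasis genes 18 lay above every PBS sample, with a median of 0.58 and none at 2-fold; Timm8b, an import chaperone, was 1.75-fold higher. Of 14 biogenesis regulators 11 lay above every PBS sample, 5 of them at least 2-fold, and 1 below, with a median of 0.75. Among the 5 were the 4 named next. Ppara, the fatty acid receptor that drives oxidation genes, was at 12.7 CPM in TSeL, against 2.56, 2.15 and 2.31 CPM in PBS, or 5.39-fold higher. The orphan receptor Esrrg, the muscle coactivator Perm1 and Ppargc1a, the PGC-1 alpha gene, were 4.46-fold, 3.30-fold and 2.80-fold higher. The 49 cytosolic ribosome genes had a median of 0.23, and 0 of them were 2-fold higher.

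**Figure D3:**
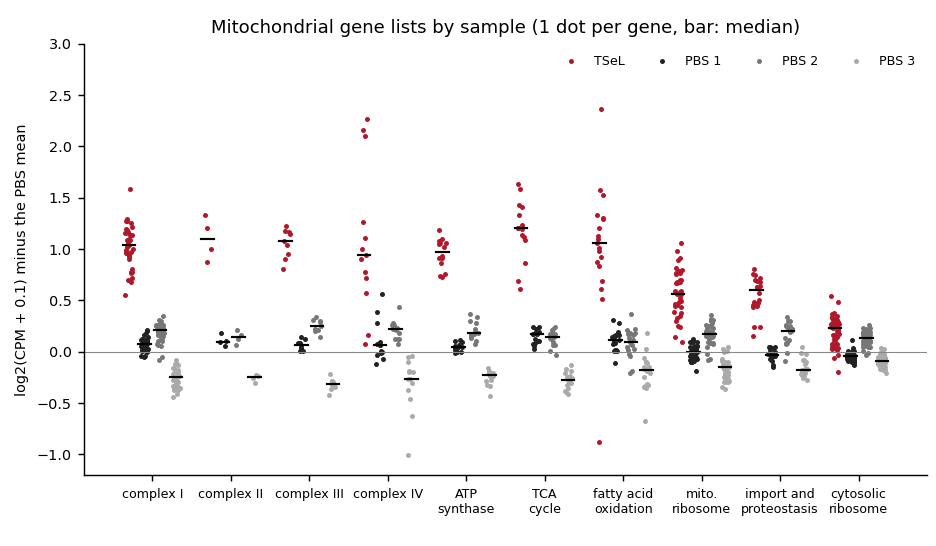
Each dot is 1 gene of a mitochondrial list (or of the cytosolic ribosome, at right) in TSeL and PBS 1 to 3, as log2(CPM + 0.1) minus the PBS mean of that gene; bars are medians. TSeL dots of the respiratory chain and the cycle centre near 1, those of the mitochondrial ribosome near 0.56, and PBS 3 lies lowest of the PBS samples.

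Isoform pairs separate the muscle form of a protein from the form that other tissues use. In 14 of 14 pairs the muscle isoform was at least 2-fold higher in TSeL and above every PBS sample, with a median log2 fold change of 2.27. Of the 14 other isoforms 3 lay above and 7 below every PBS sample, 0 were 2-fold higher, and the median was -0.21. Cox6a2, the heart and muscle form of a cytochrome c oxidase subunit, was at 191 CPM in TSeL, against 51.7, 46.5 and 25.6 CPM in PBS. Its counterpart Cox6a1 was at 99.7 CPM in TSeL, inside the PBS range of 87.05, 111 and 88.2 CPM; the sign of its small difference turned with library totals, with TSeL column 1 alone and without PBS replicate 3.

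The same held for transporters and enzymes. Cpt1b, the muscle gate of fatty acid entry into mitochondria, was at 226 CPM in TSeL, against 54.1, 56.2 and 27.4 CPM in PBS, while Cpt1a was at 76.4 CPM in TSeL, against 142, 121.5 and 159 CPM in PBS. Slc2a4, the insulin-responsive glucose carrier of muscle and fat, was 5.46-fold higher, and Slc2a1, the widespread carrier, was at 194 CPM in TSeL, against 215, 199 and 196.5 CPM in PBS. Eno3, muscle enolase, was 4.85-fold higher and Eno1 was at 585 CPM in TSeL, against 669, 792 and 709 CPM in PBS. The exceptions among the other isoforms were Cox7a2, Cox8a, whose small difference turned sign with library totals, and Atp2a2, the calcium pump of slow fibres and many other cells, at 697 CPM in TSeL, against 461, 468 and 435 CPM in PBS. In the authors' mean TPM Cox6a2 stood at 665 and Cox6a1 at 457 in TSeL, against 170 and 528 in PBS, so the order of the isoforms differed between the groups. The muscle lists took 17.4% of counts in TSeL and at most 6.10% in PBS, and their part in the higher mitochondrial genes was not tested.

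**Figure D4:**
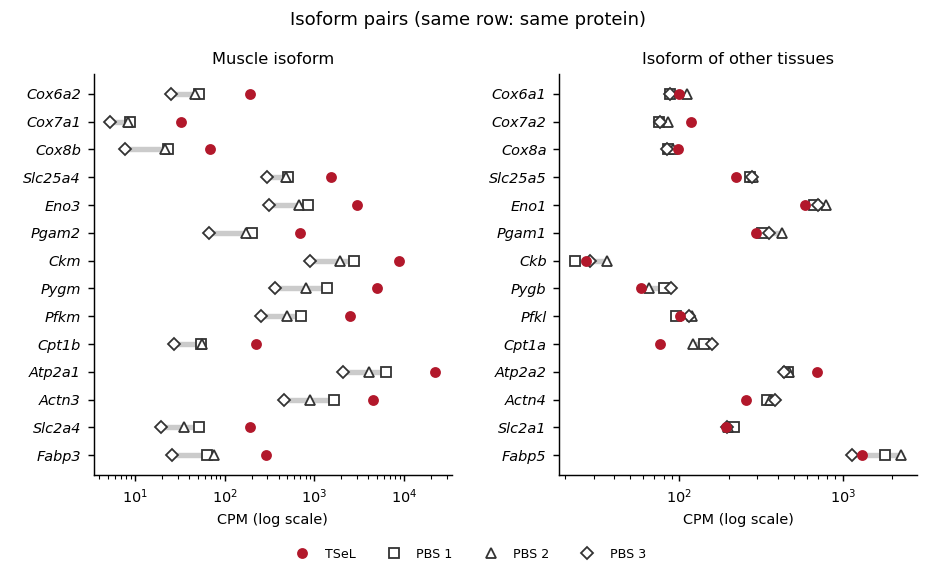
CPM (log axis) of 14 muscle isoforms (left) and of the isoform of the same protein in other tissues (right, same rows) in TSeL (filled) and PBS 1 to 3 (open). All 14 TSeL values at left lie to the right of every PBS sample; at right 3 do so, 7 lie to the left and the others inside the PBS range.

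Glucose and stress genes with a muscle role were higher as well. Of 24 glycolysis and hypoxia genes 7 were at least 2-fold higher and above every PBS sample, 0 lower, with a median of 0.74. Aldoa, the muscle aldolase, was at 9358 CPM in TSeL, against 2980, 2393 and 1313 CPM in PBS, and Ldhb, a lactate dehydrogenase subunit, was 3.80-fold higher. Of 17 chaperones Hspb6, Hspb7 and Cryab, small heat shock proteins abundant in striated muscle, were 5.13-fold, 3.80-fold and 3.94-fold higher, while the list median was 0.68. Of 15 genes of protein degradation in atrophy 7 were at least 2-fold higher. Mstn, myostatin, which limits muscle growth, was at 33.6 CPM in TSeL, against 10.1, 2.34 and 6.10 CPM in PBS, and the ubiquitin ligases Trim63 and Fbxo32 were 3.02-fold and 2.46-fold higher.

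Genes of most immune lists were lower in TSeL. Of all genes tested 33.5% lay below every PBS sample, and 6.45% did so and were at least 2-fold lower. Neutrophils are the first white cells to enter injured skin, and mast cells reside there. Of 23 neutrophil genes 14 were at least 2-fold lower and below every PBS sample, with a median of -1.34, and 5 passed in the fit of PBS and TSeL alone. Trem1 (58217), a receptor that amplifies myeloid activation, was at 31.5 CPM in TSeL, against 183, 143 and 177 CPM in PBS, or 5.31-fold lower. Retnlg, a resistin-like protein of neutrophils, was at 11.2 CPM in TSeL, against 275, 127 and 65.9 CPM in PBS; its log2 fold change was -3.80, and -3.11 without PBS replicate 1. Padi4, which citrullinates histones in neutrophils, was 4.02-fold and Cxcr2 3.40-fold lower. Not all were: S100a8, a subunit of calprotectin that stressed keratinocytes also make, was at 1743 CPM in TSeL, inside PBS samples at 2686, 2467 and 1560 CPM.

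Of 13 mast cell genes tested, of 15 on the list, 10 were at least 2-fold lower and below every PBS sample, with a median of -1.44. Cpa3, a mast cell carboxypeptidase, was at 4.90 CPM in TSeL, against 30.1, 14.3 and 23.6 CPM in PBS. Hdc, the enzyme of histamine synthesis, was at 96.8 CPM in TSeL, against 318, 270 and 292 CPM in PBS, and the proteases Tpsb2 and Mcpt4 were 3.42-fold and 2.72-fold lower. Every one of the 4 lay below every PBS sample.

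Macrophage genes were lower by less, with 17 of 19 below every PBS sample, 8 at least 2-fold, and a median of -0.91. C1qb, a chain of complement C1q made by macrophages, was at 58.8 CPM in TSeL, against 149, 164 and 166 CPM in PBS, and C1qa and C1qc were 2.24-fold and 2.36-fold lower. All 8 genes of MHC class II presentation lay below every PBS sample, with a median of -0.88, 2 of them at least 2-fold (4 without PBS replicate 1); H2-Aa was at 313 CPM in TSeL, against 564, 663 and 809.5 CPM in PBS. Of 12 Langerhans and dendritic cell genes 3 lay below every PBS sample and 0 by 2-fold, with a median of -0.18. These counts did not exceed the shares over all genes, 33.5% and 6.45%. Cd207, the Langerhans cell marker langerin, was at 2.45 CPM in TSeL, against 1.77, 3.56 and 2.19 CPM in PBS. T and NK cell genes had a median of -0.50, with 4 of 17 at least 2-fold lower, and 2 of 17 without PBS replicate 3. Cd4, the helper T cell coreceptor, was at 6.01 CPM in TSeL, against 14.2, 12.8 and 18.4 CPM in PBS.

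Complement genes were lower, 10 of 17 by at least 2-fold and below every PBS sample, with a median of -1.07, and 6 passed in the fit of PBS and TSeL alone. Serping1, the C1 inhibitor, was at 269 CPM in TSeL, against 722, 626 and 743 CPM in PBS, and C5ar1, the receptor of the C5a fragment, was 2.67-fold lower. The interferon response had 10 of 20 genes at least 2-fold lower and a median of -1.06, but 1 PBS sample decided it. Irf7, a master factor of that response, was at 28.1 CPM in TSeL, against 39.0, 38.4 and 128.5 CPM in PBS 1 to 3. Without PBS replicate 3 the list's median was -0.36 and 3 genes were at least 2-fold lower. Gbp2, a guanylate-binding protein, had a log2 fold change of -1.10 in place of -1.72, and Irf7 of -0.49 in place of -1.29.

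All 6 neutrophil-attracting chemokines lay below every PBS sample, 2 of them at least 2-fold (4 without PBS replicate 3), with a median of -0.95. Cxcl2 was at 65.7 CPM in TSeL, against 261, 234 and 162 CPM in PBS, and Cxcl5 at 104 CPM, against 248, 277 and 290 CPM. Of 23 other chemokines 11 were at least 2-fold lower, with a median of -0.83. Cxcl12, the stromal chemokine that holds leukocytes and stem cells, was at 142 CPM in TSeL, against 547, 412 and 397 CPM in PBS, and Cxcl13, which attracts B cells, was 3.81-fold lower. Cxcl9, which interferon gamma induces, was at 13.4 CPM in TSeL, against 24.8, 61.9 and 143 CPM in PBS; its log2 fold change was -2.52, and -1.73 without PBS replicate 3. The 1 chemokine at least 2-fold higher was Ccl27a, a keratinocyte chemokine that draws T cells to skin, at 2.38 CPM in TSeL, against 0.915, 0.307 and 0.651 CPM in PBS, named after its value was seen.

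Of 23 inflammatory cytokines 9 were at least 2-fold lower and 0 higher, with a median of -0.83; without PBS replicate 2, 1 was higher. Il1f8 and Il1f6, epidermal cytokines of the IL-36 group, were at 2.31 and 11.8 CPM in TSeL. In PBS 1 to 3 Il1f8 was at 8.54, 9.28 and 10.4 CPM and Il1f6 at 25.7, 42.3 and 32.3 CPM. Il1a, an alarm cytokine of keratinocytes, was 3.60-fold lower and Osm, oncostatin M of myeloid cells, 3.16-fold lower. Selp, the P-selectin on which leukocytes roll along activated endothelium, was at 41.9 CPM in TSeL, against 194, 183 and 228 CPM in PBS, 4.81-fold lower. Prok2, prokineticin 2, which neutrophils make, had 3 counts in TSeL and 433 in the PBS samples together, a ratio of PBS to TSeL of 41.7 after scaling (exact 95% interval for counting error 14.2 to 203). It was at 20.25, 4.61 and 1.54 CPM in PBS, so the size rests much on PBS 1.

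**Figure D5:**
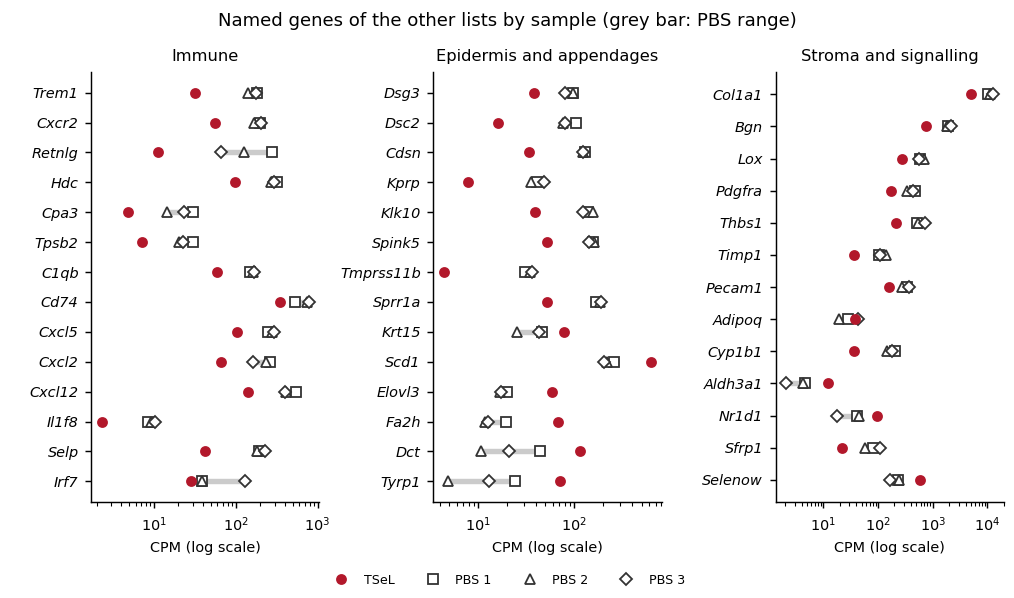
CPM (log axis) of genes of the immune, epidermal, appendage, stromal and signalling lists in TSeL (filled) and PBS 1 to 3 (open), with a grey bar over the PBS range. The immune genes shown lie to the left of every PBS sample; of the others, Krt15, Scd1, Elovl3, Fa2h, Dct, Tyrp1, Aldh3a1, Nr1d1 and Selenow lie to the right, Adipoq lies inside, and the rest lie to the left.

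The epidermis differed by layer. Keratinocytes divide in the basal layer, stiffen their desmosomes and keratins in the spinous layer and end as flattened cells with a cross-linked cornified envelope, shed by proteases. Krt5 and Krt14, the basal keratin pair, were at 2349 and 2439 CPM in TSeL. In PBS 1 to 3 Krt5 was at 1798, 2088 and 1416 CPM and Krt14 at 3189, 4226 and 2571 CPM, so that they lay on opposite sides of the PBS range. Krt1 and Krt10, the suprabasal pair, were at 1443 and 487 CPM in TSeL, against 1723 to 2918 CPM and 758 to 1165 CPM in PBS. The 14 basal genes had a median of -0.11, with 5 above and 6 below every PBS sample. Krt15, a keratin of basal cells, was 2.08-fold higher.

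Of 14 spinous genes 9 lay below every PBS sample, 5 at least 2-fold, with a median of -0.66; without PBS replicate 2 those 5 were 1. The desmosomal cadherin Dsg3 was at 38.5 CPM in TSeL, against 97.1, 97.1 and 80.2 CPM in PBS. Dsc2, desmocollin 2, was at 16.3 CPM in TSeL, against 104, 75.8 and 80.7 CPM in PBS, or 5.33-fold lower. Of 11 stress keratin and antimicrobial genes 7 were at least 2-fold lower, with a median of -1.16; Krt6b was at 918.5 CPM in TSeL, against 2163, 3059 and 1943 CPM in PBS.

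Of 25 cornified envelope genes tested 13 were at least 2-fold lower and 0 higher, with a median of -1.13. Cdsn, corneodesmosin, which holds cornified cells together, was at 33.8 CPM in TSeL, against 130, 122.5 and 124.5 CPM in PBS, or 3.72-fold lower. Sprr1a, an envelope precursor, was 3.49-fold lower, and Kprp, another envelope protein, was at 7.76 CPM in TSeL, against 41.1, 35.8 and 48.7 CPM in PBS. Sprr2i was at 18.9 CPM in TSeL, against 122.5, 119.5 and 138 CPM in PBS, though the Sprr2 genes are near-identical copies among which reads could be split. Of 16 desquamation genes 6 were at least 2-fold lower, with a median of -0.68. The kallikrein Klk10 was 3.60-fold and the protease inhibitor gene Spink5 2.92-fold lower. Tmprss11b, a membrane protease of stratified epithelia, was the gene farthest below the PBS range, at 4.41 CPM in TSeL, against 31.1, 34.3 and 36.1 CPM in PBS, and Tmprss11f was 5.17-fold lower.

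Barrier lipid genes were divided. Of 20 genes 4 were at least 2-fold lower and 1 higher, with a median of -0.61. Abca12, which loads lipid into lamellar granules, was at 27.2 CPM in TSeL, against 66.7, 82.6 and 62.0 CPM in PBS. Fa2h, a fatty acid hydroxylase used by both sebaceous glands and myelin, was at 68.1 CPM in TSeL, against 19.3, 11.9 and 12.7 CPM in PBS, or 4.65-fold higher.

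Sebaceous and pigment genes were higher. Of 16 sebaceous gland genes 8 were at least 2-fold higher, with a median of 1.10. Scd1 and Scd3, fatty acid desaturases, were at 631 and 12.2 CPM in TSeL. In PBS 1 to 3 Scd1 was at 257, 219 and 203 CPM and Scd3 at 3.60, 3.20 and 2.84 CPM. Elovl3, which elongates fatty acids, and Far2, which makes wax alcohols, were 3.27-fold and 3.48-fold higher. Of 13 melanocyte genes 9 were at least 2-fold higher, with a median of 1.69. Dct, an enzyme of melanin synthesis, was at 114 CPM in TSeL, against 43.5, 10.7 and 21.1 CPM in PBS, or 4.56-fold higher, and 7.198-fold without PBS replicate 1. Tyrp1 and Pmel were 5.05-fold and 4.62-fold higher, and 7.96-fold and 7.72-fold without PBS replicate 1. Mitf, the master factor of melanocytes, which other cells also express, was at 31.8 CPM in TSeL, inside PBS samples at 29.95, 25.6 and 32.7 CPM.

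Hair genes depended on PBS 3. The hair shaft keratins took 0.00225% of counts in TSeL, against 0.00199%, 0.000487% and 0.0306% in PBS 1 to 3. Krt33a, a hair cortex keratin, had 0 counts in TSeL, against 2, 5 and 656 counts in PBS 1 to 3, and Krt72, of the inner root sheath, had 0 counts in TSeL, against 12, 0 and 562 counts. TSeL thus lay near PBS 1 and 2 for these genes and far from PBS 3. Of 14 hair follicle transcription factors 3 were at least 2-fold higher, with a median of 0.56, and 2 or 6 were without PBS replicate 2 or 3. Lhx2, a factor of the bulge and hair bud, was at 21.7 CPM in TSeL and above every PBS sample; it was 3.99-fold higher, and 6.89-fold without PBS replicate 1. Gata3, which the inner root sheath needs, was at 36.4 CPM in TSeL, against 15.8, 16.5 and 17.5 CPM in PBS.

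Matrix and vessel genes were lower. Of 18 collagen list genes 15 lay below every PBS sample and 7 at least 2-fold, with a median of -0.94, and the list took 2.66% of counts in TSeL, against 5.79%, 5.78% and 7.71% in PBS. Col1a1 was at 5112 CPM in TSeL, against 10120, 11120 and 12980 CPM in PBS, or 2.23-fold lower, and Bgn, the proteoglycan biglycan, 2.62-fold lower. Of 26 elastic fibre and basement membrane genes 22 lay below every PBS sample and 7 at least 2-fold; Lox, which cross-links collagen, was at 279 CPM in TSeL, against 574.5, 695 and 568 CPM in PBS. Of 16 fibroblast markers 11 lay below every PBS sample, with a median of -0.54, and the growth factor receptor Pdgfra was 2.37-fold lower. Thbs1, thrombospondin 1 of healing tissue, was at 216 CPM in TSeL, against 513.5, 539.5 and 737 CPM in PBS.

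Of 20 metalloproteinases and inhibitors 17 lay below every PBS sample and 7 at least 2-fold, with a median of -0.71. Timp1 was at 36.2 CPM in TSeL, against 104, 139 and 109 CPM in PBS, and Mmp8, the neutrophil collagenase, was 4.503-fold lower. Of 16 blood endothelium genes 13 lay below every PBS sample, against 33.5% of all genes, with a median of -0.71. Only 2 were at least 2-fold lower, against 6.45% of all genes, and 0 without PBS replicate 3, so the 2-fold count says little. Pecam1, an endothelial junction protein, was at 162 CPM in TSeL, against 338, 272 and 371 CPM in PBS. Pericyte and smooth muscle genes were split, 4 of 13 at least 2-fold higher. Those 4 were Synpo2, Des, Lmod1 and Abcc9, which were 3.98-fold, 3.31-fold, 2.58-fold and 2.56-fold higher; Des, desmin, and Synpo2 also belong to striated muscle.

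Fat and nerve genes leaned higher. Of 17 white adipocyte genes 6 were at least 2-fold higher and 1 lower, with a median of 0.72. The lower one was Lep, the fat hormone leptin, at 0.559 CPM in TSeL, against 1.83, 0.983 and 1.48 CPM in PBS. Slc2a4 and Car3, carbonic anhydrase 3, which muscle fibres also make, led the higher ones, 5.46-fold and 3.58-fold higher. Adipoq, the fat hormone adiponectin, was at 37.6 CPM in TSeL, inside PBS samples at 28.3, 19.5 and 42.9 CPM. Of 10 brown adipocyte genes 6 were at least 2-fold higher, and the leading members were Cox7a1, Cox8b, Elovl3 and Ppargc1a, which the muscle, mitochondrial or sebaceous lists hold too. Of 16 Schwann cell and myelin genes 14 lay above every PBS sample and 7 at least 2-fold, with a median of 0.96; without PBS replicate 3 those 7 were 3. Prx, periaxin of myelinating Schwann cells, was 2.44-fold higher.

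Of the signalling lists, the targets of the aryl hydrocarbon receptor, a sensor of planar aromatic ligands, differed in both directions. Cyp1b1 (13078), a cytochrome P450 of stroma, was at 35.8 CPM in TSeL, against 204, 148 and 178 CPM in PBS, or 4.93-fold lower. Cyp1a1, its epithelial relative, was at 4.27 CPM in TSeL, against 1.71, 0.799 and 0.592 CPM in PBS, and Aldh3a1, an aldehyde dehydrogenase, was 3.33-fold higher. The list of 10 had 2 members at least 2-fold higher and 2 lower, with 1 lower without PBS replicate 1 or 3, so no common direction appeared.

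Of 19 clock genes 5 were at least 2-fold higher and 0 lower, with a median of 0.47; without PBS replicate 1 those 5 were 8. Nr1d1, a repressor of the clock loop, was at 94.5 CPM in TSeL, against 41.05, 45.7 and 17.8 CPM in PBS. Bhlhe41 and Tef were 2.23-fold and 2.21-fold higher. The core activators Arntl and Clock were at 30.3 and 66.9 CPM in TSeL, both inside the PBS range; they were named after their values were seen.

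Of 28 selenoprotein and selenium handling genes tested 1 was at least 2-fold higher and 2 lower, with a median of -0.05; without PBS replicate 1, 2 were higher. Selenow, a small selenoprotein rich in muscle, was at 592 CPM in TSeL, against 234, 246 and 168 CPM in PBS, or 2.74-fold higher. Selenon, an endoplasmic reticulum selenoprotein, was at 64.7 CPM in TSeL, against 128, 132 and 139 CPM in PBS. Gpx4, the lipid peroxide reductase, was 1.69-fold higher.

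Of 32 Wnt pathway genes 5 were at least 2-fold higher and 4 lower, against 8.27% and 6.45% of all genes. The list's median of 0.06 turned sign with library totals. The antagonist Sfrp1 was at 22.1 CPM in TSeL, against 79.5, 57.0 and 107 CPM in PBS, and Dkk3 was 2.19-fold lower, while the ligand Wnt3 was at 6.64 CPM in TSeL, against 2.50, 1.66 and 2.84 CPM. Cholesterol synthesis, the proteasome core and the cell cycle had medians of 0.06, 0.15 and 0.18, with 0 of 22, 0 of 14 and 0 of 30 genes at least 2-fold outside the PBS range. With library totals the medians of cholesterol synthesis and the proteasome were -0.12 and -0.03, and that of the cell cycle lay just below 0. The immediate early genes, which report recent handling or stimulation, had a median of -0.26, with 0 of 23 at least 2-fold higher and 2 lower, but 2 higher and 1 lower without PBS replicate 1 and 1 lower without PBS replicate 2.

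Of the 12 genes farthest above the PBS range 3 belong to the muscle lists, and others are named here. Abra, an actin-binding protein of striated muscle, was 8.45-fold and Lbx1, a factor of migrating muscle precursors, 5.56-fold higher. Slc38a3, a glutamine transporter, was at 59.9 CPM in TSeL, against 11.0, 10.02 and 5.33 CPM in PBS. Lrrc38, a potassium channel partner, was at 19.6 CPM in TSeL, against 3.29, 2.21 and 1.78 CPM, and Asb18 and Fer1l6 were 9.96-fold and 5.43-fold higher. Alb, serum albumin, was the exception in kind. It averaged 35.7 CPM over the TSeL columns, against 6.41, 4.55 and 4.86 CPM in PBS, yet its TSeL columns held 22, 699 and 813 counts, so that its place rests on columns 2 and 3.

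Of the 12 genes farthest below, those not yet described were Reg1, Dhrs9 and Ly6m. Reg1, a secreted lectin, was at 0.769 CPM in TSeL, against 6.59, 4.67 and 5.68 CPM in PBS. Dhrs9, a retinol dehydrogenase, was at 3.01 CPM in TSeL, against 25.1, 13.5 and 29.1 CPM in PBS. Ly6m, of the Ly6 family, was at 2.31 CPM in TSeL, below every PBS sample and 4.59-fold lower than their mean in the fit.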

How the data were processed

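RNA-seq libraries were made from flash-frozen skin with Trizol and a TruSeq kit after capture on oligo-dT beads, per the labels' protocols. The deposited gene table holds estimated counts per gene, and Bowtie2 and RSEM are named, without versions, in the submitters' processing notes. The sources used here do not give the genome build, annotation or strand setting. The authors also deposited mean TPM per group, which is used only to compare genes with one another. Another 24 columns of per-sample values and the transcript table were not used. In the column names TS was taken to stand for TSeL, and TSL for TSeL+L.

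Estimated counts of 18858 genes were rounded. The 3 TSeL and the 3 TSeL+L columns were each averaged into 1 sample. Genes passing filterByExpr (15791) were fitted over 8 samples with edgeR 4.0.16 in R 4.3.3 (TMM, robust quasi-likelihood F-test, 4 residual degrees of freedom). Each p-value sets a difference against the spread among the PBS and TL+L samples. Replicates are not said to be separate animals, so that spread may be technical. Simulated counts over 15600 genes had the same mean in every group, except for 200 genes of at least 5 CPM in PBS, changed in TSeL. There 6.06% of genes changed 2-fold were called, 68.7% of those changed 4-fold and 97.0% of those changed 8-fold. These shares belong to that setting and need not hold for the real samples. In those, 322 genes were at least 4-fold higher and 154 lower, outside the PBS range, and none was called.

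A gene was placed by its log2 CPM (prior count 2) against the PBS range. The text names the 12 genes farthest above and the 12 farthest below it among genes of at least 5 CPM, up to 4 genes per list, the isoform pairs and 8 panel genes. Myh1, Myh2, Myh4, Myh3, Myh8, Myog, Tnni1, Casq2, S100a8, Cd207, Ccl27a, Lep, Mitf, Cyp1a1, Arntl and Clock were named after their values were seen. Lists (1142 of 1151 genes matched) and members were chosen with earlier results of these data known, and the list counts carry no test. Some genes that this rule names are not reported here. Limma 3.58.1, DESeq2 1.42.0, pandas 2.3.3, scipy 1.17.1 and matplotlib 3.10.9 were used for alternatives, tables and plots. The interval of a count ratio covers counting error only.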

Additional observations from a re-analysis of the deposited data

How the results depend on the processing

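The count of called genes, 0 in the edgeR fit, was above 0 in 4 of 19 alternative settings. DESeq2 called 1324 genes, the fit of TSeL and PBS alone 417, and a fit that took the repeated columns as 12 separate samples 6521. Leaving out 1 PBS or TL+L sample gave 0 to 1315 called genes, the 1315 without TL+L replicate 2. Genes at least 2-fold higher and above every PBS sample numbered 1159 to 1495 with 1 sample left out, and genes at least 2-fold lower and below numbered 1000 to 1157. With library totals 1535 were lower. At 1.5-fold the counts were 2587 higher and 2466 lower, and at 4-fold 322 higher and 154 lower. A replicate block left 0 calls; same-numbered PBS and TL+L samples had correlations of -0.175, 0.130 and 0.212, so the numbers were not taken as pairs. The medians of 45 of 67 lists moved by more than the list's standard deviation among the PBS samples under at least 1 setting. Of 293 named genes 5 changed sign under at least 1 setting, and of 67 lists 8 did. Among them, with the block Adipoq was at -0.22, and the basal keratinocyte, inner root sheath and selenoprotein medians were 0.03, 0.13 and 0.02. With library totals Cox6a1 was at -0.12 and Cox8a at -0.02, and the Wnt, cholesterol and proteasome medians were -0.12, -0.12 and -0.03. Alb was at -1.77 with TSeL column 1. The cause was not tested. Changes near 2-fold were seldom called in the simulated data, and with 1 TSeL sample the edgeR fit called no change of any size.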

Other observations

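Genes that the liver secretes into blood stood out among those that differed between the 3 TSeL columns. Of 14480 genes with at least 40 counts, 142 differed among the columns beyond counting noise, 99 of them lowest in column 1. A group of 16 liver genes, all among the 142 and chosen after their values were seen, held 50, 1386 and 1723 counts in TSeL columns 1 to 3, against 137, 113 and 123 counts in PBS 1 to 3. Alb, serum albumin, had 22, 699 and 813 counts in the TSeL columns, against 105, 74 and 82 counts in PBS. Serpina3k, a serine protease inhibitor of plasma, had 0, 97 and 109 counts in the TSeL columns. Column 1 was thus below PBS and columns 2 and 3 above it, and the cause was not tested. Among the 42 list members that differed, the largest ratio between columns was 1.25.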
